A study of Mus musculus with 4 samples.

Results

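Compact exonic circRNAs are circular RNAs of the deposited type exon whose junction ends lie 1000 bases or less apart on the genome, both ends included. Of 13499 distinct circRNAs listed in total RNA of C57BL/6 mouse lung, 978 were of the exon type and met the span limit, and 10591 were longer circRNAs of the exon type. The limit was set on the genomic span and not on read counts. Listing itself takes at least 2 junction reads, and earlier results of these data were known when the members were chosen. The 4 libraries, 1 per stage, came from lung at the pseudoglandular stage (embryonic day 14.5), the canalicular stage (embryonic day 16.5), the terminal sac stage (embryonic day 18.5) and the alveolar stage (newborn day 7.5). No genotype other than the strain and no treatment is named, and how many animals went into a library is not stated in the labels. With 1 library per stage there was no replicate check and no p-value, so every comparison is between libraries. Except for intervals of medians, intervals are 95% intervals that cover counting error only, and PCR reads without molecular identifiers are not independent molecules.

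A circular RNA forms by back-splicing, in which a downstream splice donor is joined to an upstream splice acceptor, so that the exons between them become a ring without free ends. Such rings resist exonucleases and are usually long-lived, and many are known from brain, lung and other developing organs. Back-splicing is known to be favoured by long introns on both sides of the circled exons, where paired repeats can bring the splice sites together, and the second exon of a gene is a frequent source. A very short exon is thought to circularise poorly, and a single-exon circle usually comes from an exon longer than the average. The read that identifies a circle crosses the back-splice junction, and the junction ratio sets such reads against reads that align linearly across the same ends.

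Junction sequences are shown for 6 compact circles on which the later results turn, each formed by 1 annotated exon. They were read from the GENCODE M21 transcript sequences (build mm10) in the direction of the transcript, with the last 30 bases of the circle in lower case and its first 30 bases in capitals, so the change of case marks the back-splice junction. The circles are Nfix exon 2 (chr8:84771784-84772315, minus strand), Cdyl exon 2 (chr13:35815909-35816575, plus strand), Pde5a exon 2 (chr3:122747889-122748477, plus strand), Pwwp2a exon 2 (chr11:43704534-43705477, plus strand), Insr exon 2 (chr8:3258383-3258934, minus strand) and Samd4 exon 3 (chr14:47016277-47016795, plus strand).
Nfix: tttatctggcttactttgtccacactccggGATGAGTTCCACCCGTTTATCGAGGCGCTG
Cdyl: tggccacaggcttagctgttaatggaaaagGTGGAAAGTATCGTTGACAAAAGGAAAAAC
Pde5a: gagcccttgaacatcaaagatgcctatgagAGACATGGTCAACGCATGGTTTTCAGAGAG
Pwwp2a: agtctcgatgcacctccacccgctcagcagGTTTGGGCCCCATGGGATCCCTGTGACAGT
Insr: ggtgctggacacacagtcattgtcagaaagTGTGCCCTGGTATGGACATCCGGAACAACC
Samd4: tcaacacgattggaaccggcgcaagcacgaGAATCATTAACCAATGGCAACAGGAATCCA

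The second set of sequences shows circles whose ends carry a direct repeat, meaning that the bases at one end are also found at the other end in the linear transcript. At such ends a chimeric read made during copying or amplification can look like a back-splice, so circles with a repeat of 6 or more bases are called repeat-end below. The repeat is in capitals, with 15 transcript bases on each side, for Chd4 (chr6:125121971-125122548, plus strand), Crip2 (chr12:113143459-113144297, plus strand), Col3a1 (chr1:45337958-45338627, plus strand) and Col16a1 (chr4:130060874-130061637, plus strand). The last line is the whole 39-base circle of Trdn exon 34 (chr10:33464558-33464596, plus strand), with no part in capitals, the shortest compact circle, whose ends share a repeat of 20 bases. These sequences also come from GENCODE M21 on mm10.
Chd4 upstream copy: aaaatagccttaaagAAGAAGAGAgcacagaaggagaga
Chd4 downstream copy: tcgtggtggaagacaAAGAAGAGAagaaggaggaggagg
Crip2 upstream copy: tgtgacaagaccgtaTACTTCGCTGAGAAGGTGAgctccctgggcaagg
Crip2 downstream copy: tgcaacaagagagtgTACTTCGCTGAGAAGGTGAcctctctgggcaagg
Col3a1 upstream copy: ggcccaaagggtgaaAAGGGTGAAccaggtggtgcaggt
Col3a1 downstream copy: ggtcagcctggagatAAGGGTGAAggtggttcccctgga
Col16a1 upstream copy: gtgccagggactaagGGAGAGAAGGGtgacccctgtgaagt
Col16a1 downstream copy: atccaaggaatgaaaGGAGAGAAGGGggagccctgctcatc
Trdn: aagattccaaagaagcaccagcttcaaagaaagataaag

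The libraries held between 25983 and 36156 listed junction reads, with a minimum of 2 reads per listed circRNA, and the reads of each named 1 sequencing lane. Surfactant transcripts of the alveolar type 2 cell were seen at the ends of compact circles: 161232 linear reads lay across the ends of the Sftpc circle in the terminal sac library, where it had 2 junction reads. None of the genes on the lists of markers looked up for type 1 alveolar cells (15 genes), airway epithelium (15) and immune cells (19) was the host of a compact circle. In such whole-tissue libraries, fewer cells of a type and less RNA per cell cannot be told apart.

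By library, in the order pseudoglandular, canalicular, terminal sac and alveolar that all series of 4 values keep, there were 321, 338, 364 and 360 compact circles, against 3682, 4101, 4591 and 3629 longer exon-type circles. Their share of exon-type junction reads was 8.73% (exact Clopper-Pearson interval 8.37 to 9.09), 9.11% (8.79 to 9.45), 8.31% (8.02 to 8.61) and 10.7% (10.4 to 11.1). The alveolar share lay above the intervals of the other 3. It was 11.2% when circles marked for repeats or few alignment patterns, described further on, were left out of both the compact and the longer set. As a share of distinct exon-type circles they made up 8.02%, 7.61%, 7.35% and 9.02% respectively. The median compact circle had 3 junction reads in each library, as did the median longer circle. Circles with 10 or more reads were a larger share of the compact set in each library, between 14.0% and 16.5%, than of the longer set, between 10.2% and 12.4%.

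Over the 4 libraries the compact circles had 10386 junction reads, 9.17% of the exon-type total, and these were concentrated in few members. The 20 with most reads held 4426 of them (42.6%), and 68 members listed in all 4 libraries held 60.0%. Another 756 members were listed in 1 library, 107 in 2 and 47 in 3. Their reads also varied with span: 1 of the 127 members of 200 bases or less reached 20 reads, against 10 of the next 235 up to 400 bases, 31 of 250 up to 600, 29 of 209 up to 800 and 17 of 157 up to 1000. The plot of span against junction reads shows this rise from the shortest spans and the few circles that stand far above the rest. On either side of the limit, circles of Usp5 (997 bases, 2 reads), Atxn2 (1000 bases, 45 reads) and Hmgxb3 (1000 bases, 6 reads) lay just inside, and those of Eml2 (1001 bases, 2 reads), Kank2 (1003 bases, 3 reads) and Utp20 (1004 bases, 10 reads) just outside.

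**Figure D1:**
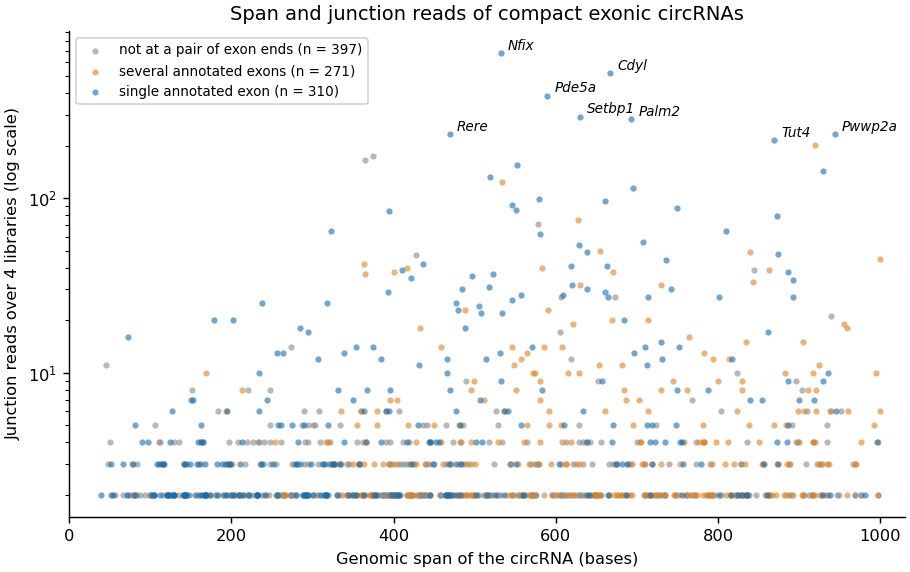
Genomic span in bases against junction reads summed over 4 libraries (log scale) for the 978 compact exonic circRNAs, 1 point each, coloured by how their ends sit on annotated exons. The single-exon circles of Nfix (677 reads), Cdyl (519) and Pde5a (386) lie highest, and 1 of the 127 circles of 200 bases or less reaches 20 reads.

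The members fell into 3 classes by where their ends sit in GENCODE M21 transcripts. A single annotated exon formed 310 of them, from 293 host genes, several exons of 1 transcript formed 271, and 397 did not have both ends at exon boundaries of 1 transcript. Both ends were thus annotated for 59.4% of compact circles against 89.0% of longer ones. The single-exon class held 6539 junction reads (63.0% of the compact total), the several-exon class 2138 (20.6%) and the remaining class 1709 (16.5%). Of the 68 members listed in all 4 libraries, 54 were single-exon circles, 11 several-exon circles and 3 had ends off the annotation. The name exonic therefore rests on the deposited type for the third class, of which 289 of 397 lay inside 1 annotated exon and 212 inside the last exon of a transcript.

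Nfix, a transcription factor of the nuclear factor I family, gave the compact circle with most reads. Its exon 2 had 120, 186, 172 and 199 junction reads by library. Per 10000 listed junction reads that was 46.2 (38.3 to 55.2), 59.6 (51.3 to 68.8), 47.6 (40.7 to 55.2) and 70.2 (60.8 to 80.7). The alveolar value was highest and its interval overlapped that of the canalicular library. Cdyl, a chromodomain protein that acts as a transcriptional co-repressor, followed with 148, 181, 124 and 66 reads for exon 2, and its 2 early libraries stood above the 2 late ones. Pde5a, the cyclic GMP phosphodiesterase of smooth muscle, had 63, 82, 82 and 159 reads for exon 2. The first 3 libraries lay within each other's intervals, and the alveolar library stood above them all at 56.1 per 10000 (47.7 to 65.6).

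Exon 2 of Setbp1, which encodes a nuclear SET-binding protein, had 74, 67, 105 and 46 reads, lowest in the alveolar library. A single exon listed under Palm2, a membrane-associated paralemmin, had 52, 74, 71 and 86 reads, and its ends match exon 7 of the read-through gene Pakap in the annotation (chr4:57709451-57710143). Rere exon 2, from a transcriptional co-regulator, had 63, 54, 53 and 63 reads (chr4:150406196-150406664). In Palm2 and Rere the libraries lay closer together than in Cdyl or Pde5a. Pwwp2a, which encodes a chromatin protein that binds the histone variant H2A.Z, had 46, 79, 59 and 48 reads for exon 2, highest in the canalicular library. Tut4, a uridylyltransferase that tails RNAs, had 41, 64, 65 and 45 reads for exon 3 (chr4:108478873-108479741), and all 4 of its intervals overlapped.

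Rad52, a homologous recombination protein, gave the several-exon circle with most reads, 23, 53, 72 and 55 from exons 10 and 11 (chr6:119920110-119921028, spliced length 303 bases). Its pseudoglandular value of 8.85 per 10000 (5.61 to 13.3) lay below the terminal sac and alveolar intervals. Gm9762, a gene annotated with 1 exon, had 28, 49, 66 and 31 reads, and Jup, which encodes the desmosome protein plakoglobin, had 13, 52, 24 and 76 from inside its last exon, exon 14 (chr11:100370780-100371144). Neither end of either circle is an annotated exon boundary. Insr exon 2, from the insulin receptor, had 21, 32, 40 and 63 reads and was highest in the alveolar library, at 22.2 per 10000 (17.1 to 28.5). The plot of the 12 members with most reads shows these levels side by side.

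**Figure D2:**
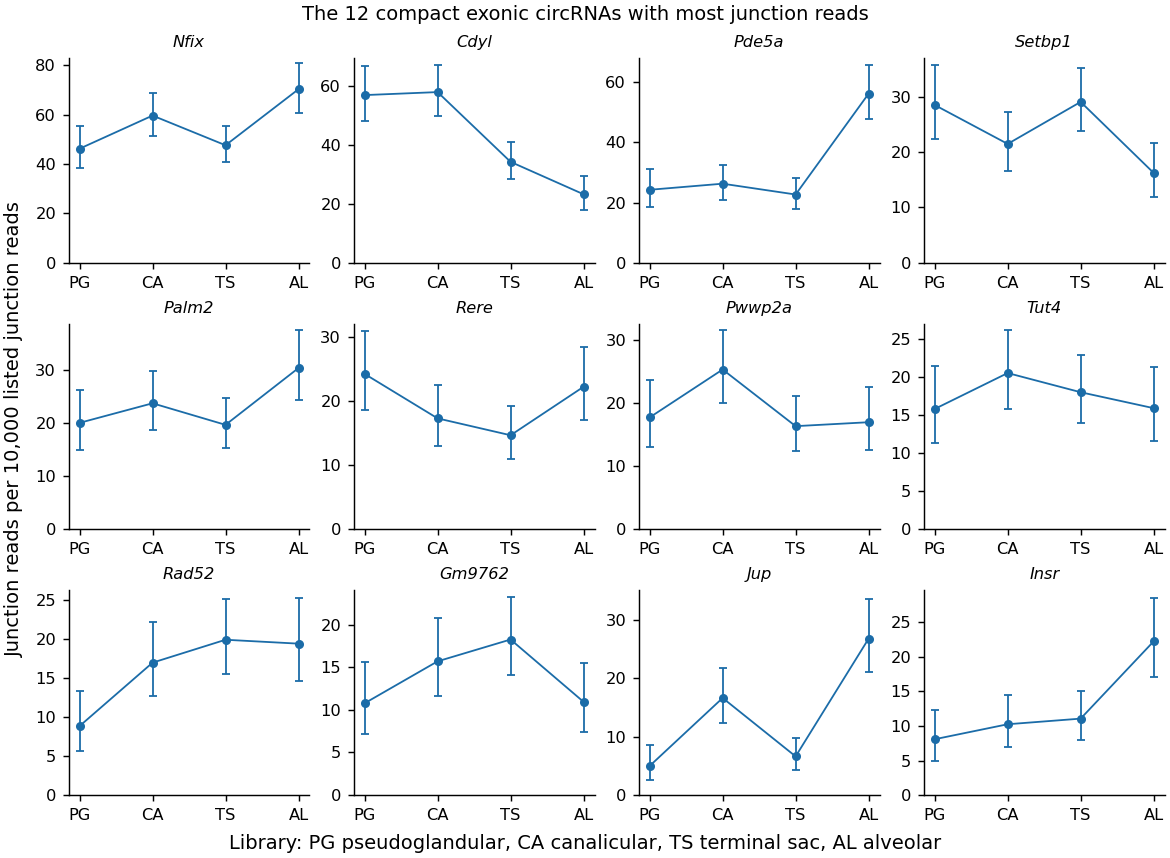
Junction reads per 10000 listed junction reads in each library for the 12 compact circRNAs with most reads; points are single libraries and bars exact 95% intervals of counting error. Pde5a and Insr are highest in the alveolar library, Cdyl is highest in the pseudoglandular and canalicular libraries, and the intervals of Tut4 overlap in all 4.

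Between-library spread was small for some of these. Among 37 members listed in all 4 libraries with 40 or more reads, the highest share was under 2-fold the lowest in 14, and the median of that ratio was 2.25. It was 1.30 for exon 3 of Gpc3, a glypican that restrains growth (22, 26, 39 and 28 reads), and 1.30 for Tut4. Rsbn1l (10, 14, 12 and 13 reads), Mllt3, a chromatin reader (9, 16, 18 and 13), and Nfix followed at 1.38, 1.48 and 1.52. At the other end were Klf7, a Krüppel-like transcription factor, at 5.55 (3, 20, 22 and 9 reads), Zfp292 at 5.39 (4, 9, 30 and 7), Jup at 5.36 and Smad1, a mediator of BMP signalling, at 5.21 (4, 21, 29 and 8). By share of junction reads Zfp292 and Smad1 were highest in the terminal sac library, Klf7 in the canalicular and Jup in the alveolar.

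The single-exon circles stood between long introns. The median intron was 14051 bases before and 14646 bases after the circled exon, and both exceeded 5000 bases for 206 of 306 circles with an intron on each side (67.3%). The several-exon compact circles had medians of 2062 and 1926 bases, with both above 5000 for 14.4%, and the longer exon-type circles with annotated ends had 7001 and 5193 bases, with 39.9%. The comparison set was 166694 inner exons of 1000 bases or less from the leading coding transcript of each gene. Circles, in contrast, could match any annotated transcript. In the comparison set the medians were 1337 and 1238 bases, with both above 5000 for 6.26%. Within the hosts of the single-exon compact circles that share was 16.2%. The plot of the shorter flanking intron shows the order of the 4 sets, with the several-exon compact circles next to these inner exons. Cdyl exon 2 lay between introns of 74020 and 40087 bases and Samd4 exon 3, from a Smaug-type RNA-binding protein, between 131260 and 36054. Nfix was an exception among the leading circles, with 1038 bases before the exon and 43816 after it.

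**Figure D3:**
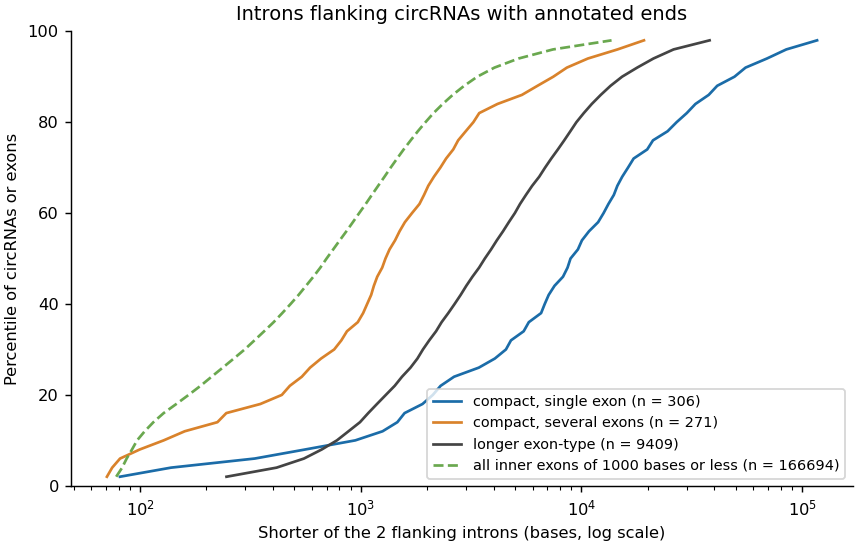
Cumulative percentile of the shorter of the 2 flanking introns in bases (log scale) for single-exon compact circles (n = 306), several-exon compact circles (n = 271), longer exon-type circles with annotated ends (n = 9409) and inner exons of 1000 bases or less in the leading coding transcript of each gene (n = 166694). Over most of the range the single-exon circles lie farthest to the right, and the several-exon compact circles lie between the longer circles and these inner exons.

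Exon 2 formed 130 of the 310 single-exon circles (41.9%), where 10.8% of inner exons of 1000 bases or less are second exons. Exon 3 formed 63 and exon 4 formed 33. Longer circles with annotated ends began at exon 2 in 30.2%. The translation start lay in 86 of the 305 circled exons of coding transcripts (28.2%), against 3.58% of the inner exons. On coding transcripts it lay in 15.2% of longer circles with annotated ends and in 47.8% of longer single-exon circles. The exons of the compact single-exon circles were also long: 64.8% of the 310 exceeded 300 bases against 3.64% of the inner exons, with the same upper limit for both. Among 210 that were wholly coding, 92 (43.8%) had a length divisible by 3, close to the 40.6% of inner exons.

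These features were more marked in the single-exon circles with more reads. The 60 with 20 or more reads held 5422 reads, had a median span of 599 bases and median introns of 23302 and 36162 bases, and 85.0% had both introns above 5000 bases. Of these 60, 57 were longer than 300 bases and 31 were second exons. The 176 with 2 to 4 reads had a median span of 299.5 bases, introns of 10308 and 10068 bases and both above 5000 in 58.1%. Single-exon circles above the limit, 116 in number, resembled the compact ones in their introns, with medians of 15542 and 12250 bases, and 54 of them (46.6%) were second exons. A pooled junction ratio of 6.31% and listing in all 4 libraries for 32.8% set them above the compact single-exon class, which had 4.004% and 17.4%.

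The junction ratio of compact circles, in which each junction read is counted 2 times against the linear reads at the ends, had medians of 1.93%, 1.64%, 2.35% and 2.12% from the pseudoglandular to the alveolar library. Longer circles had 1.92%, 1.91%, 2.40% and 2.17%. The order of the 2 sets turned with the setting. Among circles with both ends at exon boundaries the compact median was above the longer one in each library (2.74% and 1.96%, 2.30% and 1.89%, 2.93% and 2.40%, 2.38% and 2.199%), and with a span limit of 500 bases it was below in each (1.37% and 1.95%, 1.29% and 1.92%, 1.89% and 2.41%, 1.61% and 2.17%). Circles with 10 or more reads had 10.97%, 14.65%, 13.8% and 13.2% in compact and 8.51%, 7.97%, 11.1% and 9.13% in longer circles. Pooled over all reads, in contrast, compact circles had 0.847%, 1.11%, 0.959% and 1.52% and longer circles 1.92%, 2.02%, 2.01% and 1.91%. The classes differed in this measure: the pooled ratio was 4.004% in the single-exon class, 0.881% in the several-exon class and 0.305% in the class with ends off the annotation, which held 1115477 of the 1910256 linear reads. Pooled values weigh hosts with many linear reads, such as H19 with 239771 in the last class. The medians over circles, with reads summed over libraries, differed less, at 2.55%, 1.48% and 1.12%. The plot of junction ratio by read number shows the ratio going up with reads in each class, to medians of 9.80%, 4.54% and 4.03% at 20 or more reads, where longer circles had 5.80%. Read number and junction ratio share the junction count.

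**Figure D4:**
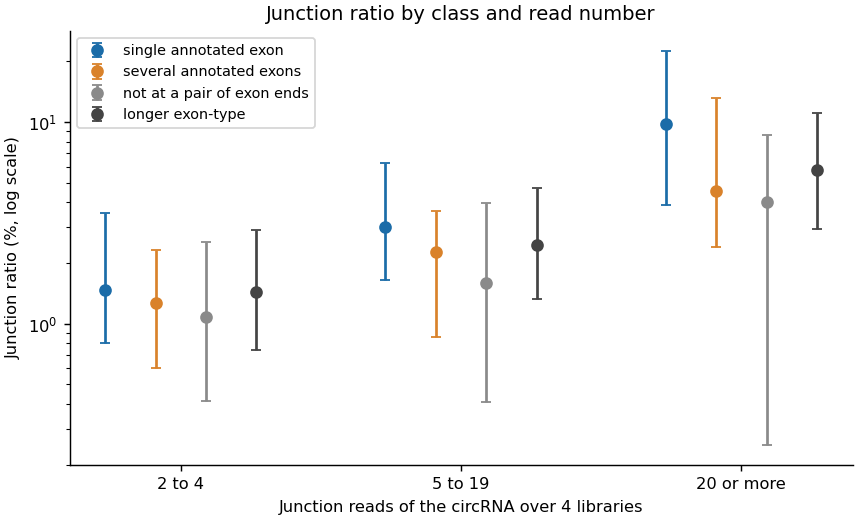
Median junction ratio in percent (log scale) by total junction reads for the 3 classes of compact circles and for longer exon-type circles; bars are the quartiles over circRNAs. At 20 or more reads the medians are 9.80% for single-exon, 4.54% for several-exon and 4.03% for off-annotation compact circles and 5.80% for longer circles.

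Among members listed in all 4 libraries, the Cdyl circle had the highest junction ratio, 58.7% over 519 junction and 730 linear reads. It was 53.6%, 60.6%, 66.1% and 54.1% by library, above 50% in each. Foxn2, a forkhead transcription factor, followed at 46.2% (exon 2, chr17:88462713-88463263), then Pwwp2a at 43.2%, the tubulin glycylase gene Ttll3 at 41.8% (exon 11), Rad52 at 38.5% and Nfix at 37.8%. At the low end Eif3a, a translation initiation factor subunit, stood at 0.401% for exon 20, with 20 junction and 9934 linear reads. Lrp4, a relative of the LDL receptor, stood at 1.07%, Chsy1, which builds chondroitin chains, at 1.65%, Gpc3 at 1.82%, the PI3-kinase subunit gene Pik3r1 at 1.94% and Hmbox1 at 2.15%. Gpc3 and Pwwp2a had 115 and 232 junction reads beside 12437 and 609 linear reads. Of all 978 members, 10 had a ratio of 50% or more, and Cdyl was the one among them with 20 or more reads.

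The members came from 855 host genes, 751 of which gave 1 compact circle, and 26 members had a non-coding host. Longer exon-type circles were listed for 466 of these hosts. An end was shared with a longer circle by 233 members: 136 single-exon circles (43.9% of that class), 76 several-exon circles and 21 of the others. H19, the imprinted non-coding RNA of foetal tissues, and Malat1, an abundant nuclear non-coding RNA, had the most compact circles, 5 each, and none of these had both ends at exon boundaries. The H19 circles totalled 20, 8, 7 and 0 reads, against 239771 linear reads summed over the circles' ends. Malat1 totalled 0, 2, 3 and 7 reads. Ccar1 gave 4, 2 with annotated ends, and Chd4, a nucleosome remodeller, and Rnf216, a ubiquitin ligase, were among the hosts of 3, with 76 and 72 reads.

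Repeat-end circles numbered 79 of 978. A further mark, few-pattern, was given where a library with 10 or more junction reads of a circle had no more than 1 distinct alignment pattern per 3 reads, counting at most 100 reads, and 8 members had it. Together 85 members (8.69%) were marked against 240 of the longer circles (2.27%), while their share of junction reads was 7.33% in compact and 7.32% in longer circles. By class, the marks fell on 14 single-exon circles, 9 several-exon circles and 62 with ends off the annotation. Few-pattern circles among the better-covered members were Col1a2 exons 8 to 10 (124 reads with 22 patterns, all in the alveolar library), Col4a1 exons 34 to 35 (42 reads, 6 patterns, canalicular) and a circle inside the last exon of Dvl2 (47 reads, 8 patterns, terminal sac). Very short members were weakly covered: Trdn (39 bases) had 2 reads, Canx (45 bases) 11, Ptms (48 bases) 3, Zfr (50 bases) 4 and Colec12 (51 bases) 2. Trdn and Canx were repeat-end, and the other 3 were not.

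The alveolar and pseudoglandular libraries are the farthest apart in developmental time. The share of listed junction reads of each circle was compared between them. A circle with 10 or more reads in the pair was called higher or lower at a ratio of at least 2-fold with an interval that excludes 1, and an unlisted circle was given 3 reads in that library, which makes its fold a lower bound. Of 83 compact circles with enough reads, 16 were higher (19.3%) and 12 lower (14.5%). Over all circRNAs 12.2% of 933 were higher and 17.4% lower, and over longer exon-type circles 11.2% and 17.2% of 812. With 0.5 reads added to each count, the median log2 ratio of the 83 was 0.26 (0.29 with unlisted circles at their bound), against -0.23 for the longer circles. The minimum of 10 reads was met by some circles through 1 library alone, so these counts describe the libraries and are no support for a direction. Of the 16 higher circles 4 were repeat-end or few-pattern and of the 12 lower circles 3. Without them 12 of 76 were higher and 9 lower.

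Single-exon circles made up 8 of the 16 higher ones, 14.3% of the 56 with enough reads, and 6 of the lower ones (10.7%). Pde5a exon 2 was 2.31-fold higher in the alveolar library (1.72 to 3.15), Insr exon 2 2.75-fold (1.66 to 4.75) and exon 2 of Igf1r, the insulin-like growth factor receptor (11, 27, 25 and 29 reads), 2.42-fold (1.17 to 5.36). The plasma membrane calcium pump gene Atp2b4 had 7, 23, 31 and 35 reads for exon 2 (chr1:133753089-133753749) and was 4.59-fold higher (2.01 to 12.2). In Atp2b4 the pseudoglandular library stood apart from the other 3, whereas in Pde5a and Insr the alveolar library did. Adgrl3, an adhesion receptor of the latrophilin family, had 3, 2, 4 and 18 reads for exon 6 and was 5.50-fold higher (1.61 to 29.2). Csnk1g1, a casein kinase, was also 5.50-fold higher (2 and 12 reads, 1.225 to 50.6), Pcmtd1 4.28-fold (1.19 to 23.2) and Tbc1d14, a regulator of autophagy, 3.30-fold (1.18 to 11.4).

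Several-exon circles made up 7 of the 16 higher ones, 33.3% of the 21 with enough reads, and 3 of the lower ones (14.3%), and 4 of the 7 carry a mark. Alg12, a mannosyltransferase of the glycosylation pathway, had 2, 4, 11 and 22 reads for exons 6 to 7 (chr15:88811297-88812159) and was 10.1-fold higher (2.48 to 88.5). Rad52 was 2.19-fold higher (1.33 to 3.74), and the protocadherin gene Pcdh17, unlisted in the pseudoglandular library and with 8, 10 and 19 reads in the others, at least 5.81-fold. The 4 marked ones were all unlisted in the first 3 libraries: Col1a2, a chain of collagen type I (124 alveolar reads, at least 37.9-fold), the LIM-domain gene Crip2 (49 reads, at least 14.98-fold), Col3a1 exons 32 to 33 (38 reads, at least 11.6-fold) and Hmcn1, which encodes the matrix protein hemicentin-1 (38 reads, at least 11.6-fold). The repeats of Crip2 and Col3a1 are the ones printed above. Jup, inside its last exon, was 5.36-fold higher (2.96 to 10.5).

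On the lower side, Cdyl exon 2 was 2.45-fold lower in the alveolar library (1.82 to 3.32). Kat6b, a histone acetyltransferase gene, had 23, 19, 29 and 8 reads for exon 2 (chr14:21516626-21517498) and was 3.13-fold lower (1.35 to 8.11). The alveolar library stood below the other 3 in Kat6b, while in Cdyl the terminal sac library was already lower. Disp1, which releases Hedgehog ligands from cells, had 16, 11, 7 and 3 reads for exon 3 and was 5.82-fold lower (1.66 to 31.1). Exon 2 of Pvt1, a long non-coding RNA next to Myc, had 14, 0, 7 and 4 reads and was 3.82-fold lower (1.20 to 15.9). Rnf111, a ubiquitin ligase of TGF-beta signalling, had 11 and 16 reads in the first 2 libraries and was unlisted in the last 2, at least 3.998-fold lower. The spindle-checkpoint kinase gene Bub1b (13, 0, 6 and 0 reads for exons 16 to 17) was at least 4.73-fold lower.

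The H19 circle of 606 bases (chr7:142577287-142577892) had 20, 0, 7 and 0 reads and was at least 7.27-fold lower by its exact ends, while 4 other H19 circles with overlapping spans had 2 reads each in the canalicular library. Col3a1 exons 31 to 32 had 14 pseudoglandular reads and none elsewhere, at least 5.09-fold lower, so different exon pairs of Col3a1 were listed in the earliest and the latest library. Both Col16a1 (repeat-end, sequence above) and Serbp1 (few-pattern, 72 bases) had 16 pseudoglandular reads and none elsewhere, at least 5.82-fold lower. The Chd4 circle between exons 32 and 34, with 1 end at an exon boundary, repeat-end and few-pattern, had 28, 31, 0 and 12 reads and was 2.54-fold lower (1.25 to 5.49). Rbm4, an RNA-binding splicing regulator, was 4.73-fold lower (13 and 3 reads, 1.30 to 25.9). The plot of called circles shows that the intervals are narrow for Pde5a, Cdyl, Insr and Rad52 and wide for most others. Of the 12 lower calls 6 rest on a circle being unlisted, and 6 were left among circles listed in both libraries. With 20 or more reads required, 13 of 40 were higher and 4 lower. The share over all circRNAs was not counted at these settings.

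**Figure D5:**
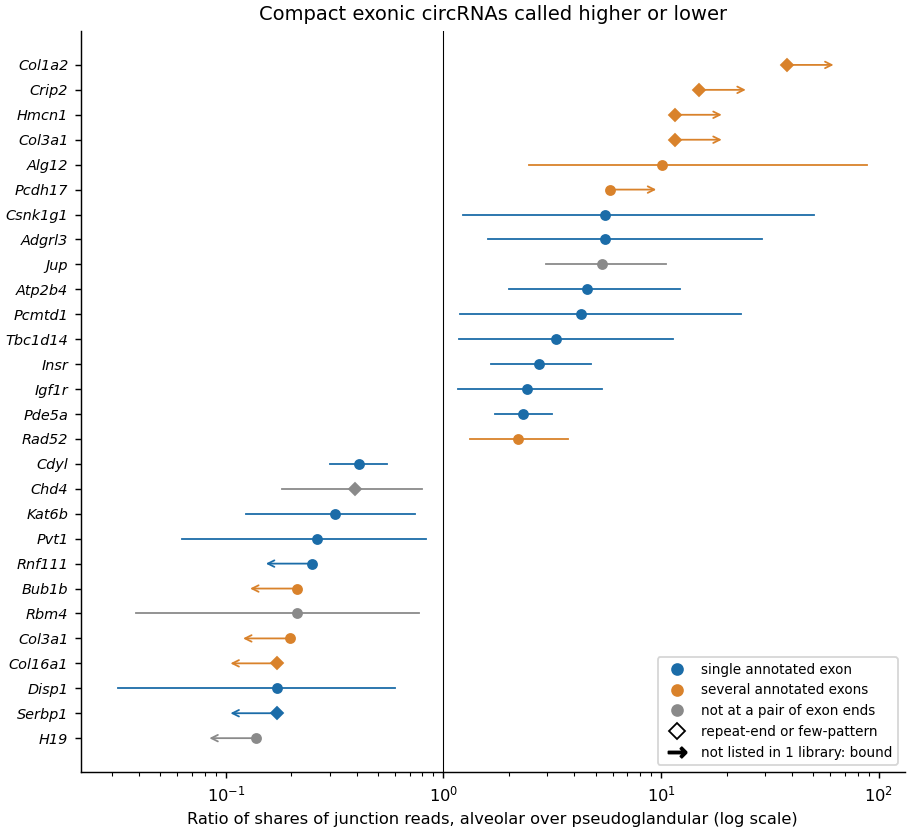
Ratio of shares of junction reads, alveolar over pseudoglandular (log scale), for the 16 higher and 12 lower compact circles; bars are exact 95% intervals of counting error, arrows mark lower bounds for circles not listed in 1 library, and diamonds mark repeat-end or few-pattern circles. Pde5a at 2.31 and Cdyl, 2.45-fold lower, have the narrowest intervals, and Col1a2 has the farthest bound at 37.9.

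The steps between neighbouring stages share libraries with each other and with the comparison above, so their values are not independent. From the pseudoglandular to the canalicular library, 6 of 77 compact circles were higher (7.79%) and 11 lower (14.3%), against 8.16% and 9.83% of all circRNAs. Among single-exon circles 3 were higher (5.26%) and 7 lower (12.3%). Scaling by the median of ratios gave 8 higher and 8 lower, and scaling by non-junction reads 9 and 8, so the excess of lower calls depended on the scaling. Klf7 exon 2 was 5.55-fold higher (1.65 to 29.2), Smad1 exon 2 4.37-fold (1.47 to 17.5), Jup 3.33-fold (1.79 to 6.66) and Atp2b4 2.73-fold (1.14 to 7.55). The Col4a1 circle, with 42 canalicular reads and none elsewhere, was at least 11.7-fold higher. Lower were Mob3b exon 2 (12 and 2 reads, 7.21-fold, 1.60 to 66.3), Nudcd3 (2.51-fold, 1.18 to 5.71) and the Wnt co-receptor gene Lrp6 (28 and 16 reads, 2.10-fold, 1.10 to 4.16). Of the 11 lower circles 7 were unlisted in the canalicular library, among them H19 (at least 8.01-fold) and Pvt1 (at least 5.61-fold).

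From the canalicular to the terminal sac library, 9 of 98 compact circles were higher (9.18%) and 7 lower (7.14%), against 8.94% and 11.2% of all circRNAs and 8.67% and 10.9% of longer circles. Among single-exon circles 5 were higher (7.81%) and 3 lower (4.69%). Med13l exon 2, from a subunit of the Mediator complex, was 7.34-fold higher (2 and 17 reads, 1.74 to 65.5). The zinc-finger gene Zfp292 was 2.88-fold higher (1.33 to 6.89), and Mbnl2, a splicing regulator (10, 0, 18 and 13 reads), at least 5.18-fold. The circles of Dvl2, a signal transducer of the Wnt pathway (47 reads), and of the apolipoprotein gene Apoa2 (21 reads) were listed in the terminal sac library alone, both few-pattern, at least 13.5-fold and 6.04-fold higher. Lower were the kinase gene Stk35 (22, 34, 12 and 20 reads for exon 3, 3.28-fold, 1.66 to 6.96), Jup (2.51-fold, 1.52 to 4.26) and Tmem132d (11, 15, 2 and 10 reads, 8.69-fold, 2.02 to 78.3). In Tmem132d the terminal sac library stood below the other 3. Col4a1 and Chd4 were at least 16.2-fold and 11.97-fold lower, both marked.

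Across birth, from the terminal sac to the alveolar library, 18 of 103 compact circles were higher (17.5%) and 9 lower (8.74%), where all circRNAs gave 10.5% and 11% and longer circles 9.04% and 11.3%. Single-exon circles gave 8 higher (12.1%) and 2 lower (3.03%). The median log2 ratio was 0.22 in compact and -0.25 in longer circles. Pde5a was 2.47-fold higher (1.88 to 3.27), Insr 2.01-fold (1.33 to 3.07), Jup 4.04-fold (2.52 to 6.69), Tbc1d14 7.66-fold (2.24 to 40.6) and Adgrl3 5.74-fold (1.89 to 23.3). The same 4 marked circles of Col1a2, Crip2, Col3a1 and Hmcn1 led the higher calls, at least 52.7-fold for Col1a2. Zfp292 was 3.36-fold lower (1.45 to 9.06), and Kat6b and Smad1, both with 29 and 8 reads, were 2.84-fold lower (1.27 to 7.19). Dvl2 (at least 12.3-fold), Apoa2 (at least 5.49-fold) and the repeat-end circle of Apoe (8 and 19 reads before, at least 4.96-fold) were unlisted in the alveolar library. Without marked circles 13 of 94 were higher and 6 lower. Of 88 circles with enough reads that both libraries listed, 10 were higher and 4 lower. The share over all circRNAs was not counted at these settings.

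The junction ratio was compared between libraries by the odds ratio of junction to linear reads, for circles listed in both. From the pseudoglandular to the alveolar library, 15 of 66 compact circles had a higher ratio (22.7%) and 1 a lower one (1.52%), against 14.7% and 7.64% of all circRNAs, while the median odds ratio was 1.19 in compact and 1.18 in longer circles. Rad52 went from 21.4% to 31.1%, 47.8% and 55.8% by library, an odds ratio of 4.56 (2.64 to 7.88), with 169 linear reads in the pseudoglandular and 87 in the alveolar library. Its junction share and its junction ratio were thus both higher. Insr went from 10.995% to 26.7% (2.90, 1.74 to 4.84), Igf1r from 3.03% to 8.45% (2.88, 1.44 to 5.74), Atp2b4 from 5.65% to 17.2% (3.30, 1.48 to 7.38) and Alg12 from 7.27% to 41.5% (7.43, 1.91 to 28.9).

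Tut4 and Gpc3 had nearly constant shares of junction reads, yet higher junction ratios in the alveolar library. Tut4 went from 12.4% to 24.4% (odds ratio 2.27, 1.45 to 3.54) as linear reads at its ends went from 578 to 279, and Gpc3 from 1.01% to 2.17% (2.16, 1.24 to 3.77) as they went from 4318 to 2528. Mob3b was the lower one, from 29.6% to 12.1%. From the canalicular to the terminal sac library 16 of 87 compact circles had a higher ratio (18.4%) against 20.1% of all circRNAs, and from the terminal sac to the alveolar library 15 of 88 a lower one (17%) against 19.6%. From the pseudoglandular to the canalicular library 7 of 67 were higher (10.4%) and 3 lower (4.48%), against 10.9% and 4.86%. These shares lay near the background. The median odds ratio from the pseudoglandular to the canalicular library was nevertheless 1.53 over the 67 compact circles and 1.16 over 808 longer ones, while it was 1.32 and 1.48 for the next step and 0.776 and 0.704 across birth. Nfix went from 52.4% to 28.4% across birth as its linear reads went from 312 to 1005, and its odds ratio was 2.78-fold lower (2.19 to 3.53), although its junction reads were 172 and 199. Kat6b (44.3% to 13.9%), Smad1 (16.5% to 4.52%) and Setbp1 (45.6% to 21.3%) were lower in the same step.

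Compact and longer circles of the same host were set side by side where both had 10 or more reads in the alveolar and pseudoglandular libraries together. Reads of the longer ones were summed. Of 23 such pairs, the ratios lay on the same side of 1 in 14, and the intervals did not overlap in 3. Ash1l entered with 2 compact circles against the same 13 longer ones. No such counts were made for pairs of longer circles, so these only describe the pairs. Exon 2 of Setbp1 was at 0.570 (0.386 to 0.835) while its longer circles were at 1.68 (1.0003 to 2.89), from 24 to 44 reads. Tut4 was at 1.01 (0.644 to 1.58) against 0.333 (0.176 to 0.603) for 9 longer circles with 44 and 16 reads. The marked Col1a2 circle was the other, unlisted in the pseudoglandular library, so that its value is a bound. In Pde5a the compact circle (2.31) and 19 longer circles (3.46, 2.75 to 4.395) were both higher in the alveolar library. Rere differed in value, 0.917 (0.636 to 1.32) for exon 2 and 0.486 (0.352 to 0.664) for 20 longer circles, with intervals that overlap narrowly.

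Compact circles of named gene groups were counted per host, with reads summed over a host's compact circles. Each group holds only the genes on its list, and some hosts described above with a related function are not on that list. For the alveolar against the pseudoglandular library 87 hosts had 10 or more reads, and 16 of them were higher (18.4%) and 12 lower (13.8%), with a median log2 ratio of 0.16. No such counts were made for all hosts or for hosts of longer circles. The group counts that follow therefore only describe the listed hosts. Extracellular matrix hosts, 10 with 18 circles, held 1.16%, 1.95%, 0.283% and 7.53% of compact reads by library. Of 4 hosts on the list with enough reads 3 were higher, Col1a2, Hmcn1 and Col3a1 (2.49-fold, 1.32 to 4.97), and none lower. Hspg2, the heparan sulfate proteoglycan perlecan, had 6 and 4 reads. The collagen gene Col16a1 is not on the list. Its 3 compact circles had 16, 0, 2 and 8 reads, and the repeat-end one described above was called lower. With 0.5 reads added to each count, the median log2 ratio of the 4 hosts on the list was 3.71, or 2.43 with unlisted hosts at their bound. Col1a2 and Hmcn1 met the read minimum through the alveolar library alone, so these medians are no support for a direction. Without marked circles the group had 24, 10, 5 and 13 reads, so its alveolar level rested on the circles of Col1a2, Col3a1 and Hmcn1.

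Chromatin regulators gave 30 circles from 23 hosts with 143, 154, 138 and 121 reads. Of 5 on the list with enough reads none was higher and 1, Chd4, lower, and the median log2 ratio was -0.12. Chd4 had 33 pseudoglandular and 12 alveolar reads, of which 28 and 12 came from its marked circle. The list is not complete. Kat6b and Cdyl, whose circles were called lower, are not on it, and neither are Pwwp2a and Mllt3, whose circles were not called. Rere, Ash1l, Setd2 and Kmt2a lay between 0.917 and 1.10, and Ash1l, a histone methyltransferase, gave single-exon circles of exon 5 (44 reads) and exon 2 (31 reads). Hosts widely described in the circRNA field, 12 in number, held 383, 456, 404 and 382 reads, and of 6 with enough reads Cdyl and Pvt1 were lower and none higher, with a median log2 ratio of 0.0043. Nfix was 1.52-fold higher (1.21 to 1.92), under the 2-fold limit. Fbxw7, the substrate receptor of a ubiquitin ligase, had 25, 19, 25 and 30 reads for exon 4, and Zfp609 had 13, 10, 9 and 16 for exon 2. Neither differed between libraries beyond counting error in the comparison of the alveolar with the pseudoglandular library.

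Smaller groups had few compact reads. Smooth muscle and pericyte hosts had 63, 89, 89 and 162 reads, of which Pde5a gave 390 of 403 in all. Epithelial transcription factors had 701 reads, 677 of them from Nfix, with 11 from Nfib and 7 from Foxp2. Endothelial hosts (Prex2, Adgrl4, Tie1, Cdh5 and Flt1) had 2, 0, 11 and 16 reads, and none had 10 reads in the 2 libraries compared. Hosts of alveolar type 2 cells (Cebpa, Etv5, Sftpa1 and Sftpc) had 0, 4, 16 and 0 reads. Cell-cycle hosts had 19, 10, 15 and 2 reads, 19 of the 46 from Bub1b, the one member with enough reads. The list of RNA-binding and splicing hosts had 109 reads from 12 hosts. Mbnl2 had 41 of them, and its share in the alveolar library was 1.19-fold that in the pseudoglandular library (0.483 to 3.04). Samd4 (23, 36, 33 and 41 reads) and Rbm4 (16, 8, 15 and 3), both described above as RNA-binding, are not on that list.

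The remaining groups were sparser still. Wnt pathway hosts had 28, 16, 68 and 21 reads, of which the marked Dvl2 circle gave 47, and Lrp6 had 28, 16, 21 and 19. The listed TGF-beta and BMP pathway hosts had 4, 21, 29 and 10 reads, 62 of the 64 from Smad1. Rnf111, described above, is not on that list and had 11, 16, 0 and 0 reads. Tfrc, the transferrin receptor and the one host on the list of erythroid cells, had 2, 2, 16 and 0 reads. Mesenchymal hosts (Macf1, Meox2 and Tcf4) had 13 reads in all. The listed hosts of FGF, Hedgehog and Notch signalling (Ncor1, Smo and Spry2) had 6 reads and the listed neuronal host Ank2 had 2. Disp1, described above with Hedgehog ligands, is not on that list and had 16, 11, 7 and 3 reads.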

How the data were processed

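Total RNA of 4 mouse lung libraries, extracted with TRIzol per the labels' protocols, was analysed from lists of circRNAs. Among the tools in the submitters' processing notes are BWA, HTSeq, cutadapt, StringTie and HISAT2 2.0.5, and the build is mm10; their roles are not given, and the column names match the caller CIRI. Both kinds of reads, junction and non-junction, are whole-number counts as the authors deposited them. Their junction ratio is a fraction, per the file headers, and recomputing it from the counts (tolerance 0.0011) gave 0 mismatches. Filters beyond the 2 junction reads seen in the lists are not given in the sources used here, and neither is the number of animals.

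CircRNAs were identified by chromosome, start and end. Exons, introns and sequences came from GENCODE M21 on mm10. Pooled ratios use linear reads of the libraries that list a circle. Between libraries, shares of listed junction reads (25983, 31218, 36156 and 28332 by stage) were compared with exact conditional binomial intervals, fitted for every circRNA. They were checked on simulated Poisson counts, which hold counting error alone. That check does not cover duplicate reads or variation between animals. Odds ratios use Woolf-type intervals with 0.5 added. Median log2 ratios have 0.5 reads added to each count, except where unlisted circles or hosts are said to be at their bound. Alternatives were 3 other scalings, other read minimums, span limits of 500 and 2000 bases, circles listed in both libraries, merging of ends within 5 bases, and leaving out marked circles. The restrictions to annotated ends and to single exons of the stage counts were added after the data had been seen. Members, the 19 gene lists and the rule for named circles were chosen with earlier results of these data known. The result of 1 list is not reported here. That rule takes the 12 members with most reads, the leading called circles of each comparison, the shortest and those at the limit, hosts with most circles, extremes of junction ratio and spread, and leading list members. A few further circles, such as Samd4 and the remaining called ones, were chosen after their values were seen. Python 3.11.15, numpy 2.4.6, pandas 2.3.3, scipy 1.17.1 and matplotlib 3.10.9 were used.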

Additional observations from a re-analysis of the deposited data

How the results depend on the processing

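No paired analysis was possible because each stage has 1 library, and no library could be left out. Of the alternatives, 91 values were classed as the same and 85 as moved. Small counts could shift and still be classed as the same. An example is the shift from 6 to 9 higher for canalicular against pseudoglandular under scaling by non-junction reads. The moved values came from alternatives that change which circles are counted, and why they moved was not tested. In the following, counts are higher then lower, in the order alveolar against pseudoglandular, canalicular against pseudoglandular, terminal sac against canalicular, and alveolar against terminal sac. A span limit of 500 bases gave 5 and 2 of 20 circles with enough reads, 2 and 4 of 16, 3 and 2 of 25, and 5 and 1 of 31. A limit of 2000 bases gave 27 and 26 of 168, 16 and 19 of 159, 21 and 19 of 199, and 28 and 18 of 203, beside 83, 77, 98 and 103 circles with enough reads at 1000 bases. Single-exon circles alone, chosen after the data had been seen, gave 8 and 6 of 56, 3 and 7 of 57, 5 and 3 of 64, and 8 and 2 of 66. A minimum of 20 reads moved the lower counts to 4 of 40, 3 of 41 and 5 of 51 (first, second and last comparison). It moved the higher count of terminal sac against canalicular to 4 of 52. Requiring a circle in both libraries left 66, 67, 87 and 88 with enough reads. It moved the lower counts to 6, 4, 4 and 4, and the higher counts to 5 and 10 in the last 2 comparisons. With both ends at exon boundaries 5 of 94 were lower in the alveolar against the terminal sac library. Shares over all circRNAs were counted at the main setting alone, so the counts at other settings have no background beside them.

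By library, pseudoglandular to alveolar, the share of exon-type junction reads was 2.61%, 2.58%, 2.31% and 2.97% at 500 bases, 19.2%, 19.7%, 19.75% and 24.03% at 2000 bases, 10.5%, 10.6%, 9.595% and 12.6% among circles with 10 or more reads, and 7.83%, 8.66%, 7.83% and 10.37% with annotated ends. The alveolar share was 11.2% with marked circles left out of both the compact and the longer set. The share of distinct circles was 3.87%, 3.56%, 3.05% and 3.81% at 500 bases, 15.5%, 14.2%, 14.25% and 16.2% at 2000 bases, 10.5%, 9.09%, 9.54% and 12.7% at 10 or more reads, and 5.41%, 6.03%, 5.94% and 7.26% with annotated ends. Median reads were 17, 18.5, 18 and 19 at 10 or more reads, and 4 in the canalicular and in the alveolar library with annotated ends. The median junction ratio was 1.37%, 1.29%, 1.89% and 1.61% at 500 bases, 10.97%, 14.65%, 13.8% and 13.17% at 10 or more reads, and 2.74%, 2.303% and 2.93% in the first 3 libraries with annotated ends.

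Scaling by the median of ratios shifted log2 ratios by 0.12 for alveolar against pseudoglandular and 0.21 for terminal sac against canalicular, and scaling by non-junction reads by 0.17 and 0.18 for the first 2 comparisons. With a minimum of 2 reads per listed circle and a median of 3, most members had too few reads to compare libraries, and 756 of 978 were listed in 1 library.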
